A study of Mus musculus with 22 samples.

Results

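The 35 genes described here act in the DNA damage response and in DNA repair, and were measured by RNA sequencing in 22 primary mouse tumours. They were taken as a fixed list of gene symbols covering the main repair pathways, chosen with earlier results of these data known. All 35 matched 1 gene identifier each among the 56748 in the files, and all 35 passed the filter on low counts that left 19202 genes for testing. They comprise 8 genes of homologous recombination, 5 of checkpoint signalling, 5 of end joining, 7 of nucleotide excision repair, 5 of base excision and single-strand break repair, 3 of the Fanconi anaemia pathway, 1 of mismatch repair and 1 of translesion synthesis.

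The tumours are labelled squamous carcinomas and model cancer of the head and neck. Every tumour carried Krt5CreER-T2/+, in which the keratin 5 promoter drives a tamoxifen-dependent Cre recombinase, together with Trp53fl/fl and Rosa26LSL-PIK3CA(H1047R)/LSL-PIK3CA(H1047R). Tumours began with an injection of 4-hydroxytamoxifen into the buccal mucosa, so controls and test groups alike lose Trp53 and gain mutant PIK3CA in keratin 5-expressing cells, while stromal and immune cells of the host keep their alleles. The 4 groups were Keap1-wildtype untreated (n = 6), Keap1-wildtype BAP (n = 6), Keap1-deleted untreated (n = 5) and Keap1-deleted BAP (n = 5). The deleted groups also carried Keap1fl/fl, and BAP is benzo[a]pyrene, a tobacco carcinogen given with the tamoxifen. KEAP1 marks the transcription factor NRF2 for degradation, and the study asked how this pathway bears on radioresistance. The labels give no age, sex or strain, and do not say whether each tumour came from a separate mouse, so p-values measure the spread between these tumours.

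Cells mend each kind of DNA lesion by its own route. Homologous recombination copies a sister chromatid to restore a double-strand break, while end joining seals the ends directly after the Ku heterodimer binds them. Nucleotide excision repair cuts out bulky adducts, which include those formed by metabolites of benzo[a]pyrene, and base excision repair removes oxidised and otherwise damaged single bases. The kinases ATM and ATR sense damage and signal through CHEK2 and CHEK1. The protein p53, which the tumour cells lack after recombination, normally induces some repair genes such as Xpc and Polh.

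The promoters of the 7 genes whose libraries did not overlap between groups in at least 1 comparison are shown. Xrcc5, Xrcc6 and Ercc5, also described below, overlapped and are not shown. With Keap1 deletion in BAP tumours 13.8% of all genes were higher and 13.7% lower without overlap, so this trait is common there. In untreated tumours 0.708% were lower with Keap1 deletion, and with BAP in deleted tumours 2.40% were higher. The sequences are from RefSeq (GRCm38.p6) and cover up to 250 bases before each gene's annotated start, 5′ to 3′ on the gene's strand, with bases that lie in a GENCODE M21 exon left out. The windows are chr5:150522371-150522620 (plus strand) for Brca2, chr3:84155787-84156036 (minus) for Mnd1, chr12:111813880-111814129 (minus) for Xrcc3, chr7:19381767-19382009 (plus) for Ercc2, chr16:13109486-13109683 (plus) for Ercc4, chr1:180568641-180568890 (plus) for Parp1 and chr6:113326748-113326971 (plus) for Ogg1. Capitals mark matches, on either strand, to 4 motifs: the antioxidant response element core TGACNNNGC bound by NRF2, an E2F site written as TTTCCCGC, TTTGGCGC or TTTCGCGC, the cell cycle homology region TTTGAA and the CCAAT box.
Brca2: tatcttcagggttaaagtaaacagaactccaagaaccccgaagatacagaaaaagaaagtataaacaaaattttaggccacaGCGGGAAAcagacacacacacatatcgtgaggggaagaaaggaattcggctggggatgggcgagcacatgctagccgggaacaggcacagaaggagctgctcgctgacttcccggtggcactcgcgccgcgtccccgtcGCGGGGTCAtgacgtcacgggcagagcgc
Mnd1: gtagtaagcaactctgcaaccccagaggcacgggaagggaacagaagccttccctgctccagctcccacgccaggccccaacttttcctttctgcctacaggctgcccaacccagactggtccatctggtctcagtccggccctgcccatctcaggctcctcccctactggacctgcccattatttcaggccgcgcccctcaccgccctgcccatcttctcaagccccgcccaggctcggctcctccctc
Xrcc3: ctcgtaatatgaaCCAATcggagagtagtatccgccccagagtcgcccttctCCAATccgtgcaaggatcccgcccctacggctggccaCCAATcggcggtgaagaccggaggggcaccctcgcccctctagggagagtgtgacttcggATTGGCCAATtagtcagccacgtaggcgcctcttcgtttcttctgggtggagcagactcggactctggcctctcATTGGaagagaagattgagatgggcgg
Ercc2: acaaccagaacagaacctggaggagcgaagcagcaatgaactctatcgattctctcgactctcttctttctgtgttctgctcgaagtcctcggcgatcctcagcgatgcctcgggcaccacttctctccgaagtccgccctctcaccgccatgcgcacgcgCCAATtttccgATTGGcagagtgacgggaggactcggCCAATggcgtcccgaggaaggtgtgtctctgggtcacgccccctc
Ercc4: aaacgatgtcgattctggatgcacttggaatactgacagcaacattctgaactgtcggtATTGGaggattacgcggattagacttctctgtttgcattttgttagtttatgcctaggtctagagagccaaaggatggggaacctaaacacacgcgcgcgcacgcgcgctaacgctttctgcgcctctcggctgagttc
Parp1: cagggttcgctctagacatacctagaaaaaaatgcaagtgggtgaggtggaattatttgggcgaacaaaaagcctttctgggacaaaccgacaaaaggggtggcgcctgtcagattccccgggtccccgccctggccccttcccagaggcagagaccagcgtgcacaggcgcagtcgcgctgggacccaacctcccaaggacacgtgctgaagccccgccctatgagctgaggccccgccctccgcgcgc
Ogg1: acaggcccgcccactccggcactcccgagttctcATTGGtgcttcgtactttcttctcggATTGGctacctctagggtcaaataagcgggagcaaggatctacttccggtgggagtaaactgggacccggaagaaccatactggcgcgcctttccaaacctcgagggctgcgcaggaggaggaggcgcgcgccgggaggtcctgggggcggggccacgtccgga

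In the Brca2 window the E2F letters GCGGGAAA begin 168 bases before the start and the antioxidant response element letters GCGGGGTCA begin 29 bases before it. Xrcc3 had 6 CCAAT boxes, 2 of which abut each other, Ercc2 had 3, Ogg1 had 2 and Ercc4 had 1, while the Mnd1 and Parp1 windows held none of the 4 motifs. Of the 35 genes, 30 had an entry in the RefSeq table. Across those 30 windows the antioxidant response element core was found in 3 (10%), against 10.2% of all 32851 windows. E2F letters were in 3 (10%: Brca2, Chek2 and Xrcc6) against 1.53% of all windows. The Xrcc6 window had 0 bases outside exons, so its match lies in exon bases. CCAAT was in 15 (50%) against 33.8%, and TTTGAA in 1 (3.33%, Ercc5) against 16.0%. A match describes the letters only.

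Library totals ran from 29235010 to 39862777 counts, and the lowest count of any of the 35 genes in any library was 57. No pair of libraries was alike within sampling noise. Keap1 itself was at 45.8 to 78.9 CPM (the counts-per-million scale, with library factors from the trimmed mean of M-values, TMM) in the 12 Keap1-wildtype libraries and at 22.2 to 36.4 CPM in the Keap1-deleted untreated libraries. In the Keap1-deleted BAP libraries it was at 29.8, 65.6, 9.45, 32.2 and 15.0 CPM, so the library labelled Keap1-deleted BAP 2 lay in the wildtype range, and the counts of called repair genes are also given without it. The library labelled Keap1-deleted BAP 3 had the lowest level of the NRF2 target Nqo1 in its group, at 19.4 CPM, and the highest of Trp53, at 110 CPM. Over 20 NRF2 targets the median log2 fold change with Keap1 deletion was 1.47 in untreated tumours, with all 20 above 0. In BAP tumours that median was 0.08, with 10 above 0 and 10 below. All 14 basal keratinocyte markers were detected in every group, but their summed level was 343 to 2060 CPM in the Keap1-deleted BAP libraries against 30900 to 71100 CPM in the Keap1-wildtype BAP libraries. Keap1-wildtype untreated 6 also stood apart, with a summed level of 1770 CPM against a group median of 33400 CPM.

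The repair genes varied less between groups than most genes did. The ratio of the highest to the lowest group mean had a median of 1.5 over the 35 genes and ran from 1.12 for Msh6 to 2.8 for Mnd1. It was under 1.5 for 17 genes (48.6%) and 2 or more for 7 (20.0%), namely Mnd1, Xrcc3, Brca2, Ercc5, Ogg1, Ercc4 and Ddb2. Over all 19202 genes the median ratio was 2.2, with 23.6% of genes under 1.5 and 55.7% at 2 or more. The 35 genes were not matched to all genes by count level, and the part of low counts in these ratios was not tested. Per kilobase of exon the most abundant were Xrcc5 at 14.2 CPM per kilobase, Lig1 at 12.5, Apex1 at 12.1, Msh6 at 9.87 and Parp1 at 9.26, and the least abundant were Fanci at 0.743, Brca2 at 0.727 and Atr at 0.627. The heat map of log2 levels shows how single libraries stand out. Keap1-wildtype untreated 2 was the highest of all 22 libraries for 14 of the 35 genes, and the highest of its group for 17, where it was so for 22.5% of all genes.

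**Figure D1:**
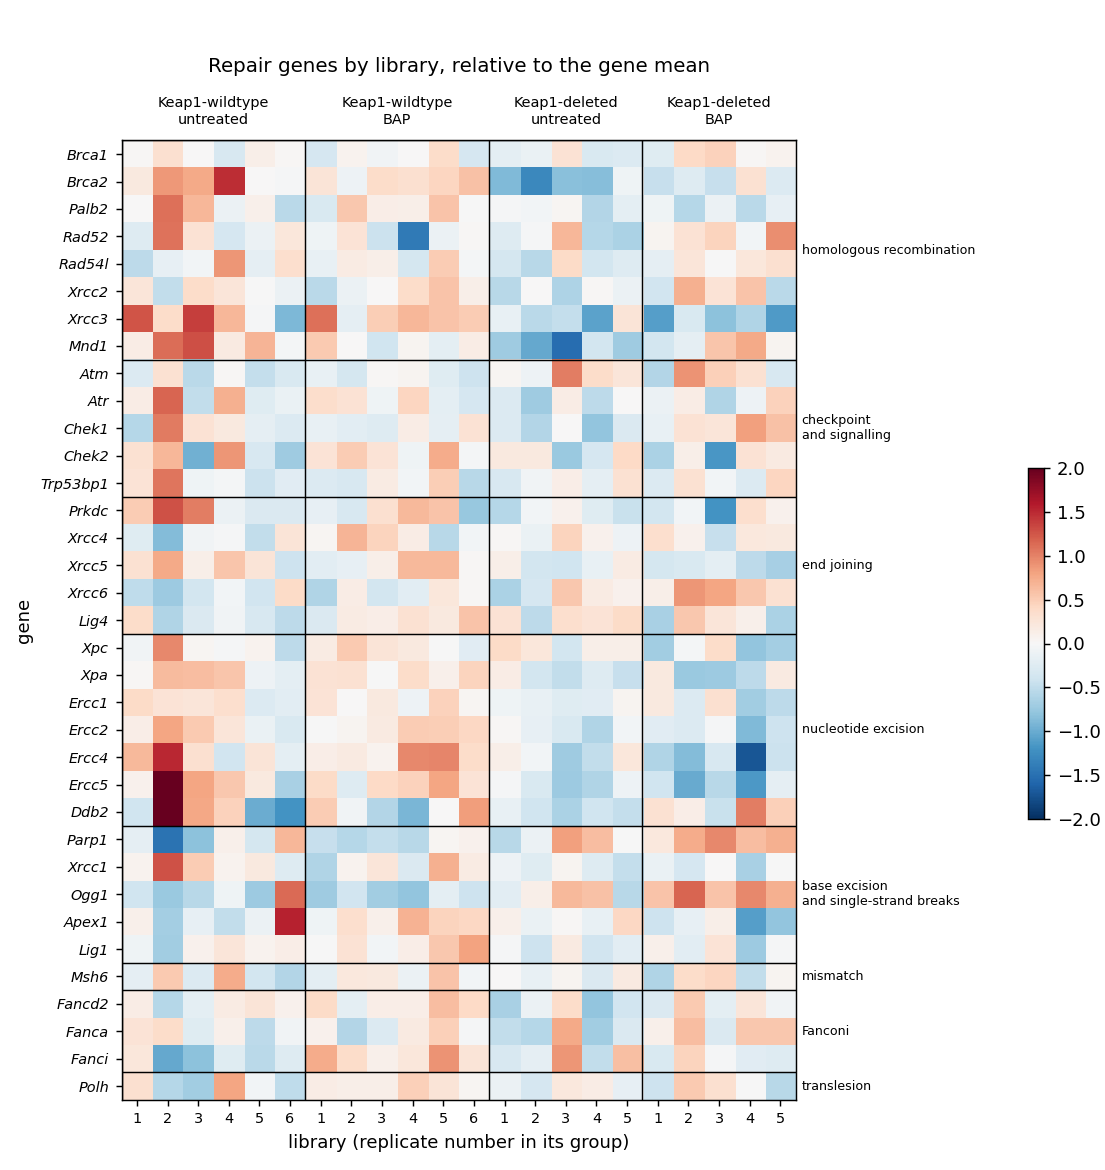
Log2 CPM of each of the 35 repair genes (rows, by pathway) in each of the 22 libraries (columns, by group), relative to the gene's mean, with the colour scale in log2 units ending at 2 in each direction. Keap1-wildtype untreated 2 holds the highest value for 14 genes, and the Keap1-deleted untreated libraries are the lowest group for Brca2 and Mnd1.

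A gene was called when its Benjamini-Hochberg adjusted p, over all genes tested with edgeR's quasi-likelihood test, was under 0.05. In untreated tumours Keap1 deletion came with 0 repair genes higher and 2 lower, Brca2 and Mnd1, which is 5.71% of the 35. Of all genes 0.292% were called, 0.214% higher and 0.0781% lower. At an unadjusted p under 0.05 there were 8 repair genes, all lower, where 17.6% of all genes passed and 10.1% were lower. In BAP tumours 3 repair genes rose with Keap1 deletion (Xrcc6, Parp1 and Ogg1) and 5 fell (Xrcc3, Xrcc5, Ercc2, Ercc4 and Ercc5), 22.9% of the 35 against 40.3% of all genes (20.3% higher, 20.0% lower). BAP itself was followed by 0 calls among the 35 in Keap1-wildtype tumours, as for all genes (0), and by 1 in Keap1-deleted tumours, Mnd1, which rose (6.10% of all genes called, 0.943% higher and 5.16% lower). The Keap1 log2 fold change, with its sign, was called higher in BAP than in untreated tumours for 1 of the 35, again Mnd1, which fell with Keap1 deletion in untreated tumours and was not called in BAP tumours (6.94% of all genes called, 2.47% higher and 4.47% lower).

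Effect sizes were also read without a threshold, again with no match on count level. In untreated tumours the median size of the log2 fold change was 0.39 for the 35 genes and 0.47 for all genes, and 4 repair genes (11.4%) exceeded 1 against 23% of all genes. In BAP tumours it was 0.43 against 0.84, and 3 repair genes (8.57%) exceeded 1 against 44.1%. The 2 Keap1 comparisons share no tumour. Of the 35 genes 23 had the same sign in both (65.7%, against 69.6% of all genes), and 19 were lower with Keap1 deletion in both (54.3%, against 36.5%). These sign counts hold for the TMM scale only. Scaled by library totals, the median log2 fold change in BAP tumours was 0.269 for the 35 genes and 0.444 for all genes.

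**Figure D2:**
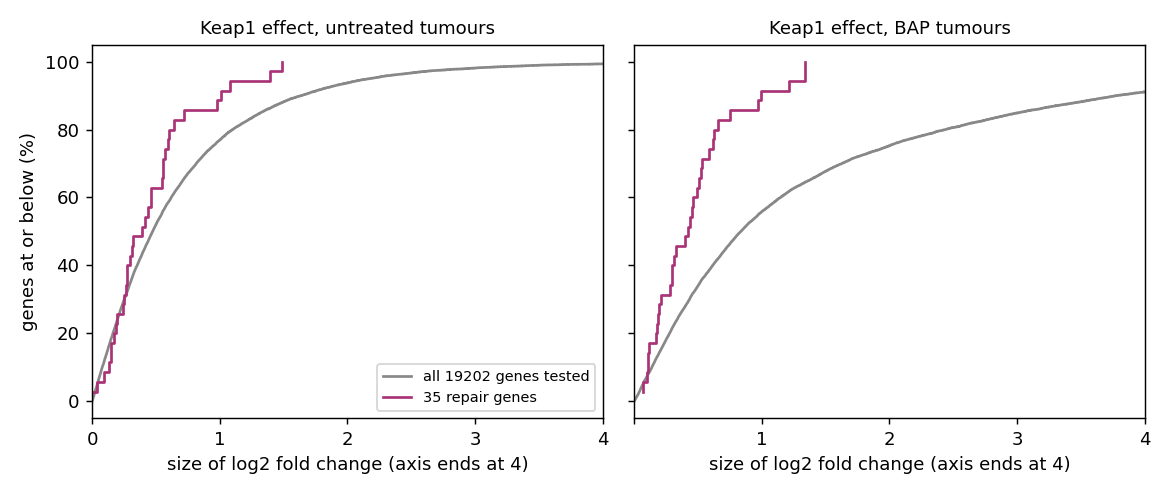
Cumulative share of genes (percent) by the size of the log2 fold change with Keap1 deletion, for the 35 repair genes and all 19202 genes, in untreated and in BAP tumours. The repair gene curve lies to the left of the all-gene curve over most of its length, and further in BAP tumours, where 8.57% of repair genes and 44.1% of all genes exceed 1.

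**Figure D3:**
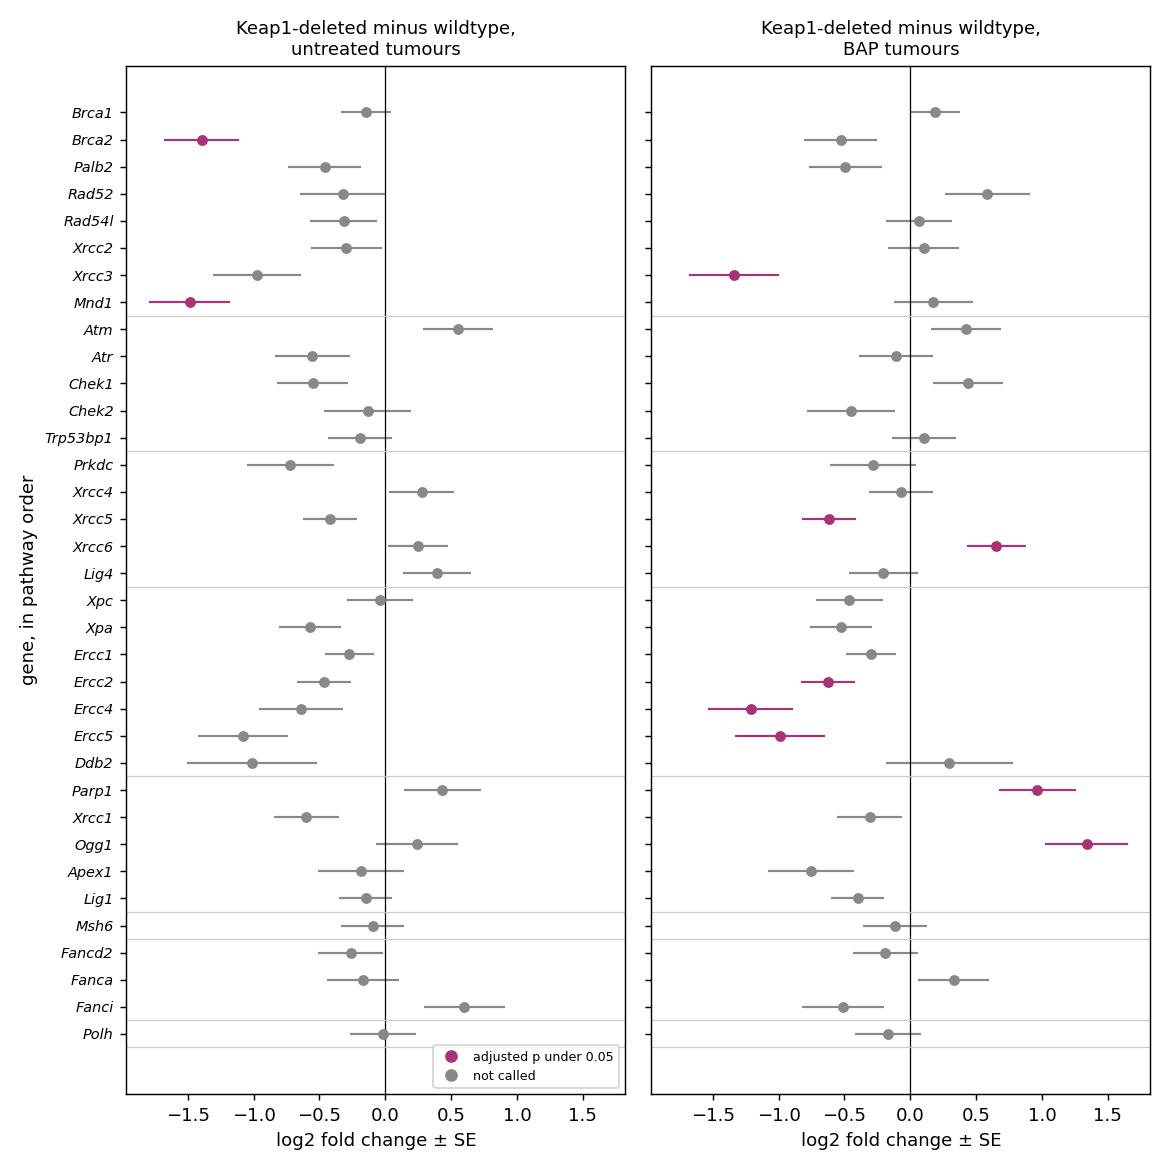
Log2 fold change (Keap1-deleted minus Keap1-wildtype) with its standard error for each of the 35 genes, in pathway order, in untreated and BAP tumours, with called genes in colour. All 8 homologous recombination genes and all 7 nucleotide excision genes lie below 0 in untreated tumours, and called genes lie on both sides of 0 in BAP tumours.

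Homologous recombination gave the 2 calls in untreated tumours. BRCA2 is a tumour suppressor that acts in the repair of double-strand breaks by this pathway. Brca2 (ENSMUSG00000041147, chr5:150522630-150570329, plus strand) ran from 8.86 to 25 CPM (median 12.7) in Keap1-wildtype untreated libraries and stood at 4.84, 3.65, 4.99, 4.95 and 8.46 CPM in the Keap1-deleted ones. Every deleted library lay below every wildtype one, although the nearest pair, 8.46 and 8.86 CPM, almost met. Its log2 fold change was -1.39 ± 0.29 (SE), adjusted p = 0.0424. In BAP tumours Brca2 ran from 8.35 to 13.5 CPM (median 11.4) in wildtype and was at 6.49, 7.53, 6.52, 11.1 and 7.46 CPM in deleted libraries. These groups overlapped through the 1 deleted library at 11.1 CPM, and the difference of -0.53 ± 0.28 was not called (adjusted p = 0.137).

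MND1 works with HOP2 in strand invasion, and is best known from meiosis. Mnd1 (ENSMUSG00000033752, chr3:84087933-84155786, minus strand) ran from 6.35 to 16.1 CPM (median 8.98) in wildtype untreated libraries, from 4.95 to 9.38 CPM (median 6.69) in wildtype BAP libraries, and was at 3.98, 3.19, 2.25, 5.04 and 3.97 CPM in deleted untreated libraries and 5.04, 5.74, 9.68, 11.1 and 6.78 CPM in deleted BAP libraries. The deleted untreated group lay below the wildtype untreated group with no overlap, as did 0.708% of all genes. It also lay below the deleted BAP group (2.40% of all genes), but only just, since the nearest libraries of those groups both round to 5.04 CPM. Mnd1 fell with Keap1 deletion in untreated tumours (-1.49 ± 0.31, adjusted p = 0.0457), differed by 0.18 ± 0.30 in BAP tumours (adjusted p = 0.665), and rose with BAP in deleted tumours (1.06 ± 0.31, adjusted p = 0.049). The interaction was 1.66 ± 0.42 (adjusted p = 0.0313). The score of basal keratinocyte markers moved with the BAP comparison, at 6.27 to 8.94 in deleted untreated and 2.1 to 5.78 in deleted BAP libraries (mean log2 CPM, no overlap), with 10 of 14 markers called lower. With that score as a covariate neither the BAP effect on Mnd1 (0.99, adjusted p = 0.579) nor the interaction (1.58, adjusted p = 0.681) was called. Because the score does not overlap between the deleted groups, this fit cannot tell the parts of score and BAP apart. No conclusion is drawn from the lost calls. The comparison in untreated tumours and the BAP comparison in deleted tumours share the 5 deleted untreated libraries, so they are not separate evidence.

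These calls were close to the threshold, and some other settings ended them. In untreated tumours Brca2 and Mnd1 each stayed called in 6 of 10 other settings. The rise of Mnd1 with BAP stayed called in 7 of 10, and its interaction in 7 of 9. These settings include an alternative chosen after seeing the data. Both genes lost their call in untreated tumours without the low-count filter (adjusted p = 0.0668 for Brca2 and 0.074 for Mnd1), with only the groups compared in the fit (0.234 and 0.206) and with the R suffix of the sample titles as a covariate (0.066 and 0.11). Mnd1 also lost it with library totals (0.0597). Brca2 stayed called in 4 of 11 fits that each left out 1 of the libraries compared, those that omitted Keap1-deleted untreated 5 or wildtype untreated tumour 1, 5 or 6. Mnd1 stayed called in 2 of 11, those that omitted wildtype untreated tumour 1 or 6. The fold changes lay between -1.55 and -1.15 and between -1.62 and -1.31 (adjusted p up to 0.122 for both). The rise of Mnd1 with BAP stayed called in 1 of 10 such fits, that without Keap1-deleted untreated 4, between 0.88 and 1.19 (adjusted p up to 0.153), and the interaction in 16 of 22 (1.49 to 1.79, adjusted p up to 0.07), failing without Keap1-wildtype BAP 4, Keap1-deleted untreated 1, 2 or 5, or Keap1-deleted BAP 4 or 5.

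The other homologous recombination genes were lower but not called in untreated tumours. All 8 were below 0 there under each of 3 scalings, with a median log2 fold change of -0.39 against -0.05 for all genes. XRCC3 acts in homologous recombination of broken chromosomes. Xrcc3 (ENSMUSG00000021287, chr12:111803192-111813873, minus strand) ran from 9.15 to 44.6 CPM (median 24.6) in wildtype untreated libraries and was at 15.5, 11.7, 12.3, 8.12 and 20.5 CPM in deleted ones, a difference of -0.98 ± 0.33 (adjusted p = 0.153) that passed the threshold (-1.15, adjusted p = 0.0149) without Keap1-wildtype untreated 6. In BAP tumours it fell, from 15.1 to 36.7 CPM (median 24.9) in wildtype to 7.96, 13.8, 9.62, 11.2 and 7.75 CPM in deleted libraries. Those groups did not overlap (13.7% of all genes were lower in this way), and the log2 fold change was -1.34 ± 0.34 (adjusted p = 0.00421), called in all 11 fits that left out 1 library. In BAP tumours the pathway split, with 5 of 8 above 0 and a median of 0.09. Brca1, which directs breaks into this pathway, differed by -0.15 in untreated and 0.19 in BAP tumours, Palb2, which joins BRCA1 to BRCA2, by -0.46 and -0.49, Rad52, an annealing factor, by -0.32 and 0.58, Rad54l, a chromatin motor, by -0.32 and 0.07, and Xrcc2 by -0.30 and 0.10, none of them called.

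**Figure D4:**
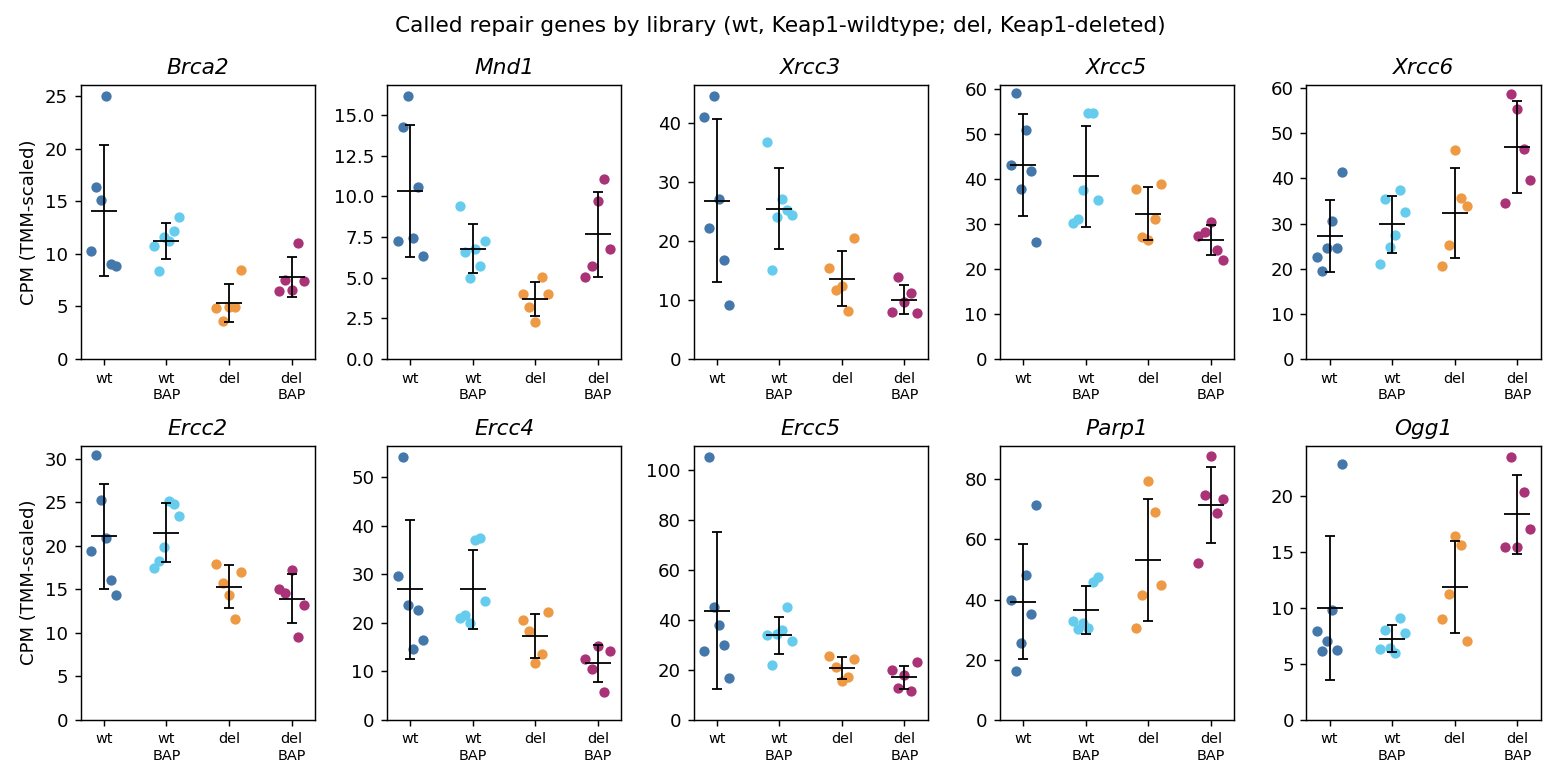
CPM of the 10 repair genes called in any comparison, 1 point per library, with group means and standard deviations (bars), in the 4 groups (wt, Keap1-wildtype; del, Keap1-deleted). Brca2 and Mnd1 are lowest in untreated deleted tumours, while Ogg1 and Parp1 lie above, and Xrcc3, Ercc2 and Ercc4 below, all wildtype BAP libraries in the deleted BAP libraries.

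Before the calls in BAP tumours are taken one by one, the make-up of those tumours is given, since it moved with the comparison. The basal keratinocyte score, the mean log2 CPM of the 14 markers, was 8.82 to 9.71 in wildtype and 2.1 to 5.78 in deleted BAP libraries. Krt5 fell by 5.20 on the log2 scale (adjusted p = 0.000651). Scores of 12 fibroblast markers were 4.93 to 5.86 and 8.36 to 10.13, and of 12 macrophage markers 3.33 to 4.53 and 7.3 to 8.37, in the same order. Those 3 pairs of ranges did not overlap. Skeletal muscle markers also rose, 13 of 14 called with a median of 5.0, with scores of -1.61 to 2.02 and -0.16 to 6.08, which overlapped. In bulk tissue fewer cells of a type and less RNA per cell cannot be told apart. With the keratinocyte score as a covariate 0 repair genes and 0 genes of all were called in BAP tumours, and because score and group do not overlap their parts cannot be told apart. Untreated groups overlapped in this score (5.41 to 9.62 in wildtype, 6.27 to 8.94 in deleted libraries), and with the covariate Brca2 and Mnd1 stayed called there (-1.36, adjusted p = 0.0346, and -1.50, adjusted p = 0.0343). Other cell types moved with Keap1 deletion in untreated tumours. Of 7 B and plasma cell markers tested, edgeR called 1, which was higher (14.3%, against 0.292% of all genes). It called none of the fibroblast, endothelial or skeletal muscle markers. All 12 fibroblast, all 10 endothelial and all 14 skeletal muscle markers were above 0, with medians of 1.14, 1.18 and 2.16, and 3, 8 and 8 of them had an unadjusted p under 0.05. Their part in the Brca2 and Mnd1 differences was not tested.

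The scale of the libraries also bears on the BAP comparison. Scaled by library totals alone, the median of all genes shifted by 0.445 (log2) relative to TMM, and 8 repair genes were higher and 1 lower, against 3 and 5. The median of all genes was then 0.444, so these counts are not read as a result about the repair genes. The median of the 35 genes lay 0.189 below that of all genes under TMM (-0.189) and 0.175 below it with library totals (-0.175). Xrcc3 (-0.87), Xrcc6 (1.10), Parp1 (1.43) and Ogg1 (1.79) stayed called with library totals, and Xrcc5 (-0.16), Ercc2 (-0.18), Ercc4 (-0.77) and Ercc5 (-0.55) did not. Without the library labelled Keap1-deleted BAP 2, whose Keap1 level lay in the wildtype range, 2 repair genes were higher and 4 lower, and without Keap1-deleted BAP 4, the library with the lowest keratinocyte score, 3 were higher and 2 lower. Across the 11 fits that each omitted a compared library, 6768 to 7536 of all genes were called.

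End joining held opposite changes in the 2 subunits of Ku. Xrcc6 encodes Ku70 and Xrcc5 encodes Ku80, which bind broken ends as a pair. Xrcc6 (ENSMUSG00000022471, chr15:81987835-82040085, plus strand) ran from 21.1 to 37.3 CPM (median 30.1) in wildtype BAP libraries and was at 39.7, 58.7, 55.3, 46.6 and 34.5 CPM in deleted ones. Only the lowest deleted library, at 34.5 CPM, reached into the wildtype range, and Xrcc6 rose by 0.66 ± 0.23 on the log2 scale (adjusted p = 0.026). Xrcc5 (ENSMUSG00000026187, chr1:72307421-72394952, plus strand) ran from 30.1 to 54.6 CPM (median 36.5) in wildtype and was at 27.3, 28.2, 30.4, 24.1 and 22 CPM in deleted BAP libraries, where a single deleted library crossed the lowest wildtype value. Its log2 fold change was -0.62 ± 0.21 (adjusted p = 0.022).

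The ratio of the Ku subunits does not depend on the scaling of a library. It was computed after both values had been seen. Per exon length, Xrcc6 over Xrcc5 was 0.72, 1.18, 1.04, 1.1 and 1.03 in the deleted BAP libraries and 0.287 to 0.65 (median 0.395) in the wildtype BAP libraries, which did not overlap. Untreated tumours overlapped, at 0.187 to 0.909 (median 0.339) in wildtype and 0.31, 0.533, 0.995, 0.652 and 0.499 in deleted libraries. The wildtype library with the ratio of 0.909 was Keap1-wildtype untreated 6, whose keratinocyte score of 5.41 was the lowest of its group, and the part of cell make-up in the ratio was not tested. Each of these calls was lost in 4 of 11 fits without 1 library: for Xrcc6 without Keap1-wildtype BAP 1 or 3 or Keap1-deleted BAP 2 or 3 (0.56 to 0.61, adjusted p up to 0.0736), and for Xrcc5 without Keap1-wildtype BAP 4 or 5 or Keap1-deleted BAP 4 or 5 (-0.59 to -0.52, adjusted p up to 0.0591). Prkdc, the kinase that Ku recruits, differed by -0.72 in untreated and -0.28 in BAP tumours, Xrcc4, the scaffold of the ligase, by 0.28 and -0.07, and Lig4, the ligase itself, by 0.39 and -0.21, none of them called.

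Nucleotide excision repair had 3 of 7 genes called in BAP tumours, all lower, a share (42.9%) near that of all genes called there (40.3%), and none of the 3 stayed called with library totals. All 7 genes lay below 0 in untreated tumours (6 with library totals), with a median of -0.57 and no call, and 6 of 7 in BAP tumours (5 with library totals), with a median of -0.53. Ercc4 encodes XPF, which with ERCC1 cuts the strand on the 5′ side of a lesion. Ercc4 (ENSMUSG00000022545, chr16:13109684-13150617, plus strand) ran from 19.9 to 37.4 CPM (median 23.0) in wildtype BAP libraries and was at 12.5, 10.4, 15.2, 5.77 and 14.2 CPM in deleted ones. The groups did not overlap, and the lowest value belonged to Keap1-deleted BAP 4, which also had the lowest keratinocyte score, 2.1. Ercc4 fell (-1.21 ± 0.32, adjusted p = 0.00592) and was called in all 11 fits without 1 library. Its partner Ercc1 differed by -0.30 ± 0.19 (adjusted p = 0.218).

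The helicase of transcription factor TFIIH and the 3′ endonuclease moved in the same direction. Ercc2 (ENSMUSG00000030400, chr7:19382010-19395694, plus strand), the helicase XPD that opens the DNA, ran from 17.4 to 25.1 CPM (median 21.6) in wildtype and was at 15.0, 14.5, 17.2, 9.55 and 13.2 CPM in deleted BAP libraries, which did not overlap. It fell (-0.63 ± 0.21, adjusted p = 0.02), and the call was lost without Keap1-deleted BAP 4 (-0.52, adjusted p = 0.0628). Ercc5 (ENSMUSG00000026048, chr1:44147744-44181260, plus strand), the nuclease XPG, ran from 21.8 to 45.0 CPM (median 34.2) in wildtype and was at 19.7, 12.9, 17.8, 11.6 and 22.9 CPM in deleted BAP libraries, where the highest deleted library passed the lowest wildtype one. It fell (-0.99 ± 0.34, adjusted p = 0.0254), a call lost without Keap1-wildtype BAP 5, Keap1-deleted BAP 2 or Keap1-deleted BAP 4 (-0.91 to -0.88, adjusted p up to 0.0666). In untreated tumours Ercc5 differed by -1.08 ± 0.34 (adjusted p = 0.127), Ercc4 by -0.64 and Ercc2 by -0.46, and Ercc5 passed without Keap1-wildtype untreated 6 (-1.25, adjusted p = 0.0138).

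The damage sensors of this pathway were not called. Xpc, which finds distorted DNA, differed by -0.04 in untreated and -0.46 in BAP tumours. Xpa, which checks the lesion, differed by -0.57 in untreated and -0.52 in BAP tumours. Ddb2, which recognises ultraviolet lesions, ranged from 1.74 to 17.5 CPM in wildtype untreated libraries against 2.58 to 3.63 CPM in deleted ones. That difference of -1.01 ± 0.49 was not called, and Ddb2 differed by 0.30 in BAP tumours.

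Base excision and single-strand break repair held Ogg1 and Parp1, the 2 largest rises of the 35 genes in BAP tumours. OGG1 is the glycosylase that removes 8-oxoguanine, the commonest oxidised base. Ogg1 (ENSMUSG00000030271, chr6:113326972-113335068, plus strand) ran from 6.0 to 9.06 CPM (median 7.08) in wildtype BAP libraries and was at 15.4, 23.5, 15.4, 20.4 and 17.0 CPM in deleted ones, a gap with no overlap (13.8% of all genes were higher in this way). It rose (1.34 ± 0.31, adjusted p = 0.00248) and was called in all 11 fits without 1 library. Untreated libraries overlapped, at 6.19 to 22.9 CPM (median 7.50) in wildtype and 9.0, 11.2, 16.4, 15.6 and 7.06 CPM in deleted tumours (0.24 ± 0.31, adjusted p = 0.7). The wildtype library at 22.9 CPM was again Keap1-wildtype untreated 6, and the 2 highest deleted libraries, Keap1-deleted untreated 3 and 4, had the lowest keratinocyte scores of their group, 6.27 and 6.64. The part of cell make-up in the level of Ogg1 was not tested.

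PARP1 detects strand breaks and builds poly(ADP-ribose) chains that draw in repair factors. Parp1 (ENSMUSG00000026496, chr1:180568924-180601254, plus strand) ran from 30.2 to 47.6 CPM (median 32.5) in wildtype BAP libraries and was at 52.3, 74.9, 87.6, 68.8 and 73.4 CPM in deleted ones. The groups did not overlap, Parp1 rose (0.97 ± 0.30, adjusted p = 0.0134), and all 11 fits without 1 library called it. Untreated libraries overlapped, at 16.2 to 71.3 CPM (median 37.4) in wildtype and 30.7, 41.5, 79.5, 69.2 and 44.8 CPM in deleted tumours (0.43 ± 0.30, adjusted p = 0.442), with Keap1-wildtype untreated 6 at 71.3 CPM. Apex1, the endonuclease that cuts at the site OGG1 leaves, differed by -0.18 in untreated and -0.75 ± 0.33 in BAP tumours (adjusted p = 0.0717), and ranged from 9.99 to 46.6 CPM in wildtype untreated libraries because Keap1-wildtype untreated 6 was far above the rest. Xrcc1, the scaffold of single-strand break repair, differed by -0.60 and -0.31, and Lig1, the replicative ligase, by -0.15 and -0.40, none called.

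**Figure D5:**
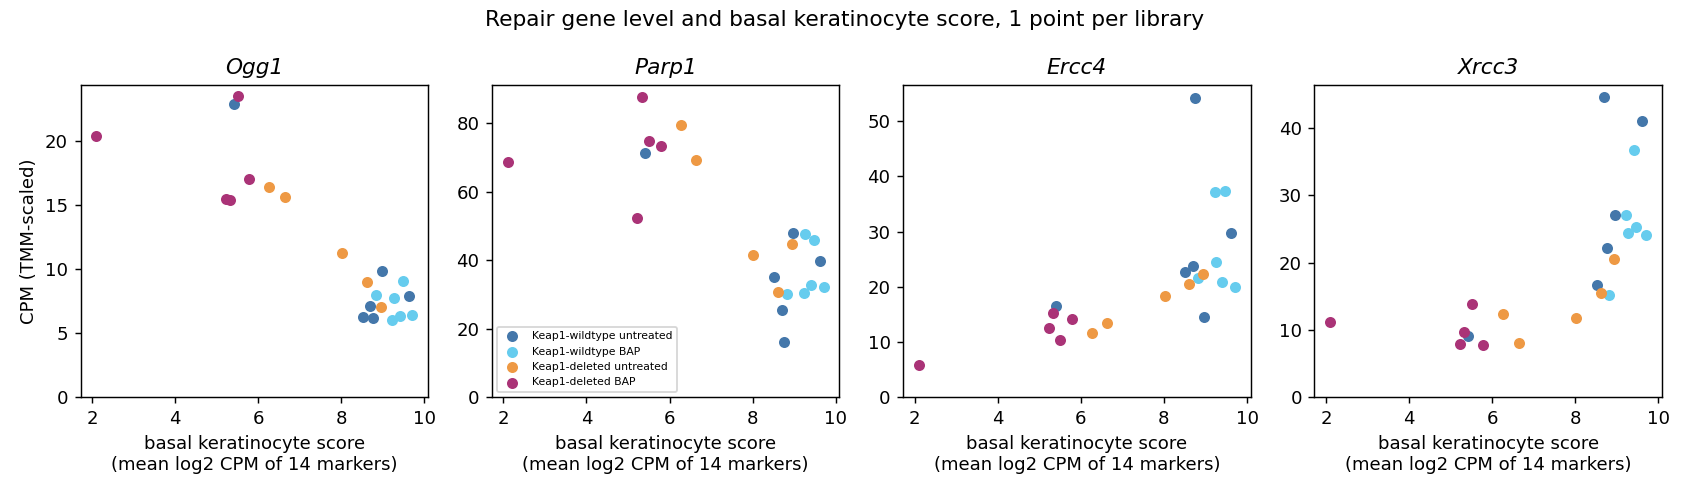
CPM of Ogg1, Parp1, Ercc4 and Xrcc3 against the basal keratinocyte score (mean log2 CPM of 14 markers), 1 point per library, coloured by group. The 8 libraries with scores under 7, from 3 of the 4 groups, lie above the other libraries for Ogg1 and Parp1, and the wildtype and deleted BAP groups do not overlap in score. The part of cell make-up in these levels was not tested.

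Some of these genes share exons with a gene on the other strand, and whether the counts keep the strand is not given in the sources used here. Ogg1 shares 232 bases (10.6% of its exon bases) with Camk1, a calcium-dependent kinase, which rose by 3.70 in deleted BAP tumours (adjusted p = 0.0003606) and had a mean count of 1299 against 408.8 for Ogg1. Ercc2 shares 744 bases (17.8%) with Klc3, which fell by 4.64 there (adjusted p = 0.0004739). The direction of each neighbour is that of the repair gene, and its part in the repair gene's counts was not tested. Xrcc6 shares 344 bases (7.7%) with Desi1, which differed by -0.26 (adjusted p = 0.391), opposite in sign. Brca2 and Xrcc3 share 0.3% and 0.4% of their exon bases with a neighbour, Apex1 shares 61.7% with Pip4p1, Ddb2 23.8% with Acp2 and Fanci 16.0% with Polg.

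Checkpoint, Fanconi, mismatch and translesion genes had no call in any comparison. Atm, the kinase for double-strand breaks, was above 0 in both Keap1 comparisons (0.55 and 0.42), while Atr, the kinase for stalled forks, was below 0 in both (-0.55 and -0.11). Chek1, the effector of ATR, differed by -0.55 in untreated and 0.44 in BAP tumours, an interaction of 0.99 ± 0.38 that was not called (adjusted p = 0.0999), and Chek2, the effector of ATM, by -0.13 and -0.45. Trp53bp1, which shields broken ends from resection, differed by -0.19 and 0.10. FANCI and FANCD2 form the clamp that marks crosslinked DNA. Fanci differed by 0.60 in untreated and -0.51 in BAP tumours, Fancd2 by -0.26 and -0.19, and Fanca, of the core complex, by -0.17 and 0.33. Msh6, which reads mismatched bases, had the steadiest group means of the 35, at 40.5 ± 5.09 to 45.4 ± 9.34 CPM (SD, n = 5 and 6). Its single libraries ran from 27.2 to 69.3 CPM. Polh, the polymerase that copies past ultraviolet lesions, differed by -0.02 and -0.17.

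Few of these genes differed with BAP alone. In Keap1-wildtype tumours edgeR called 0 of the 35, 2 had an unadjusted p under 0.05 (against 13.7% of all genes), and DESeq2 called 1, Fanci. Fanci was at 1.94 to 4.70 CPM (median 3.05) in untreated and 4.30 to 7.53 CPM (median 5.0) in BAP libraries, which overlapped, and differed by 0.86 ± 0.30 (adjusted p = 0.194). Mnd1 was the other gene, at -0.61 ± 0.28 (adjusted p = 0.353). The median difference was -0.04 over the 35 genes and -0.09 over all genes. In Keap1-deleted tumours Mnd1 was the only call, 21 of 35 genes were above 0, and the median was 0.06 against -0.03 for all genes. The nearest uncalled gene was Chek1, at 4.86 to 8.55 CPM in untreated and 7.63 to 14.9 CPM in BAP libraries (0.76 ± 0.28, adjusted p = 0.115).

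The rest of the repair machinery was read from lists of 127 further genes, of which 126 were tested. In untreated tumours 0 of the 126 were called by edgeR with Keap1 deletion, and 25 had an unadjusted p under 0.05, all of them lower (10.1% of all genes were lower at that threshold). In BAP tumours 12 rose and 10 fell, 17.5% against 40.3% of all genes, and without Keap1-deleted BAP 2 the counts were 9 and 10. The list of translesion and direct reversal genes had 4 of 12 called, all higher (33.3%, against 40.3% of all genes). All 12 were above 0, with a median of 0.48. Mgmt, which lifts alkyl groups off guanine, rose by 2.37 ± 0.58 (adjusted p = 0.00326). Mad2l2, a subunit of polymerase zeta, rose by 1.08 ± 0.31 (adjusted p = 0.00922). Rev1, its partner polymerase, rose by 1.23 ± 0.40 (adjusted p = 0.0177). In base excision 1 of 20 rose and 3 fell, which is 20% called. Those that fell were Tdg at -2.22 ± 0.60 (adjusted p = 0.00661) and Ung at -1.47 ± 0.41 (adjusted p = 0.00717), the thymine and uracil glycosylases, and Aptx at -0.76 ± 0.18 (adjusted p = 0.00295).

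Single genes of the other lists moved both ways. With Keap1 deletion in BAP tumours 9.52% of checkpoint, 28.6% of Fanconi and 29.4% of nucleotide excision genes were called, against 40.3% of all genes. Of 21 checkpoint genes H2afx, the histone variant phosphorylated at breaks, fell by 1.37 (adjusted p = 0.000752) and Mdc1, which binds that mark, rose by 0.96 (adjusted p = 0.00418). Of 14 Fanconi genes 2 rose, among them the nuclease scaffold Slx4 (1.21 ± 0.31, adjusted p = 0.00461), and 2 fell, Faap100 and Faap24 of the core complex (-0.90 and -0.85, adjusted p = 0.00122 and 0.00491). In nucleotide excision 3 of 17 rose, among them Cdk7 (0.80), and 2 fell, among them Gtf2h3 (-0.95). Dna2, a resection nuclease, fell by 0.70 (adjusted p = 0.0382), a call lost without Keap1-deleted BAP 2 (adjusted p = 0.0553). With BAP in Keap1-deleted tumours 3 of the 126 rose, among them Gtf2h2 and Pole (0.73 and 0.88), and Faap100 fell (-0.73), 3.17% against 6.10% of all genes. Without Keap1-deleted BAP 2 neither call of Pole held (adjusted p = 0.0943 for BAP and 0.0524 for the interaction). The interaction was called for Slx4 and Pole (1.72 and 1.22) and for Faap100 (-0.95), 2.38% of the 126 against 6.94% of all genes.

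Many repair genes are expressed most in dividing cells, and proliferation markers are given here for that reason. Mki67, a marker of cycling cells, differed by -0.90 ± 0.26 (adjusted p = 0.105) in untreated tumours and fell by 1.38 in BAP tumours (adjusted p = 0.000702). It was the only 1 of 20 mitosis genes to exceed 1 in size in BAP tumours. The median of those 20 there was -0.23, with 0 called higher and 7 lower (35%, against 40.3% of all genes). For 20 replication genes the median was 0.11, with 2 called higher and 3 lower (25%). The score of 20 mitosis genes was 5.08 to 5.95 in wildtype and 4.78 to 5.5 in deleted untreated libraries, and 5.4 to 6.03 and 5.15 to 5.83 in BAP libraries. With this score as a covariate Brca2 in untreated tumours was at -1.15 and no longer called (adjusted p = 0.0999), and Mnd1 stayed called. In BAP tumours 9 repair genes were then called (3 higher, 6 lower). The share of all genes called in BAP tumours with this covariate is not given, so that count is not read as a result about the repair genes.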

How the data were processed

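RNA from 22 pulverised primary tumours was sequenced as paired reads on an Illumina platform, per the labels' protocols. For each library the authors deposited an expected count per gene and an effective length, columns that RSEM writes, per the file headers, and all expected counts were whole numbers. Not given in the sources used here are the aligner, the build and the strand setting. Symbols and positions came from GENCODE M21 (GRCm38), which named 52073 of 56748 identifiers, holding 99.39% of counts. The deposited length equalled the merged M21 exon length for 33 of the 35 genes, and levels per kilobase use it. Promoter windows of 250 bases are from RefSeq (GRCm38.p6).

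Counts were rounded to whole numbers, filtered with filterByExpr (minimum count 10) and fitted in 1 model with a term per group over all 22 libraries, using TMM factors and edgeR 4.0.16's robust quasi-likelihood test in R 4.3.3. Benjamini-Hochberg adjustment ran over all 19202 genes, with calls under 0.05. Log2 CPM used a prior count of 2. DESeq2 1.42.0, limma 3.58.1 (voom with quality weights), other scalings, no filter, covariates and omitted libraries were alternatives. Counting error only is covered by the totals of each library, 29235010 to 39862777.

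The 35 members and all lists were chosen with earlier results of these data known, so no p is given over a list. All members are described, and full statistics are given for called ones. Up to 3 called genes per further repair list and comparison are named, by smallest p, and from the context lists Keap1, Trp53, Nqo1, Mki67, Krt5, Cdkn1a and Mdm2 were allowed. Some genes that this rule names are not reported here. The neighbours that share exons, the Ku ratio and the other subunit ratios were chosen after their values were seen.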

Additional observations from a re-analysis of the deposited data

Results flagged for a closer look

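Each of the 35 genes was checked in each of the 4 groups for a library whose gap to its nearest neighbour was large for the group's range (Dixon's test at 95%). Of 140 sets 14 stood out (10%), where chance gives about 1 in 20, and the genes are not independent of each other.

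Keap1-wildtype untreated 2 gave 6 of them, all high and from several pathways. It had Rad52 at 17.6 CPM (next 10.1), Trp53bp1 at 64.5 (next 37.1), Xpc at 33.6 (next 18.0), Ercc5 at 105.0 (next 45.2), Ddb2 at 17.5 (next 6.97) and Xrcc1 at 86.8 CPM (next 50.9). Keap1-wildtype untreated 6, the library with the lowest keratinocyte score of its group, had Ogg1 at 22.9 (next 9.84) and Apex1 at 46.6 CPM (next 17.1). Ogg1 shares 10.6% of its exon bases with Camk1 and Apex1 61.7% with Pip4p1, and the part of these neighbours was not tested. Keap1-deleted untreated 3 had Brca1 at 14.8 (next 11), Rad54l at 10.7 (next 6.83) and Fanca at 20.8 CPM (next 10.1).

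The remaining 3 were single cases. Brca2 stood high in Keap1-deleted untreated 5 at 8.46 CPM (next 4.99) and in Keap1-deleted BAP 4 at 11.1 CPM (next 7.53), and Lig4 stood low in Keap1-deleted untreated 2 at 5.52 CPM (next 9.59). Without Keap1-deleted untreated 5 the Brca2 call in untreated tumours stayed.

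The Keap1 difference of Mnd1 differed between BAP and untreated tumours, with an interaction of 1.662 (log2) and an adjusted p of 0.0313 in edgeR's test over all genes. Its adjusted p ran from 0.00179 to 0.681 over 9 other settings and up to 0.07 when 1 library was omitted.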

How the results depend on the processing

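Among calls of single repair genes in BAP tumours, Xrcc3, Ercc4, Parp1 and Ogg1 passed in all 11 fits that omitted 1 compared library. Counts of called repair genes and of all called genes depended on settings as follows, and the cause was not tested. For Keap1 in untreated tumours (2 repair genes, 56 of all), library totals and the mitosis covariate left 1 repair gene, and no low-count filter, a fit of only the groups compared, or the R suffix in sample titles left 0. Omitting Keap1-wildtype untreated 6 with Keap1-deleted BAP 2, an alternative chosen after seeing the data, gave 4. All genes numbered 944 with DESeq2, 1870 with voom, 36 unfiltered, 0 with only the groups compared, 28 with the R suffix, 139 with the keratinocyte covariate and 2530 without both libraries. For Keap1 in BAP tumours (8 and 7746) the keratinocyte covariate left 0 and 0, and turned Xrcc5 to 0.033, Xrcc6 to -0.03, Ercc2 to 0.129, Ercc4 to 0.008 and Ercc5 to 0.307. For BAP in wildtype tumours (0 and 0) DESeq2 gave 1 and 892, and the R suffix 37 of all genes. For BAP in deleted tumours (1 and 1172) DESeq2 gave 2 and 2112, voom 6 and 3205, no filter 0 and 398, only the groups compared 0 and 352, and the keratinocyte covariate 0 and 2. For the interaction (1 and 1333) DESeq2 gave 3 and 3008, no filter 0 and 111, the R suffix 2 and 3021, the keratinocyte covariate 0 and 0, and library totals and omission of both libraries 2 repair genes each.

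With 1 library omitted at a time, repair genes called ran from 0 to 4 and all genes from 16 to 2731 for Keap1 in untreated tumours, the upper ends both without Keap1-wildtype untreated 6. The ranges were 5 to 9 and 6768 to 7536 in BAP tumours, 0 throughout for BAP in wildtype tumours, 0 to 1 and 181 to 1597 for BAP in deleted tumours, and 0 to 2 and 1 to 2309 for the interaction. The count of all genes with an interaction was 1 without Keap1-deleted untreated 1, 2 or 5, 2 without Keap1-deleted BAP 4, and 2309 without Keap1-wildtype untreated 1. No paired analysis was possible because the labels carry tumour numbers but no replicate number shared between groups. The lowest count of any of the 35 genes was 57, and precision is limited by the 5 or 6 tumours per group.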

Other observations

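Other subunit pairs were compared per exon length, after their values had been seen. Ercc4 over Ercc1, the 2 parts of the 5′ nuclease, had a median of 0.246 (0.188 to 0.408) in Keap1-deleted BAP libraries and 0.455 (0.349 to 0.801) in Keap1-wildtype BAP libraries, which overlapped, against 0.407 and 0.431 in deleted and wildtype untreated libraries. Fanci over Fancd2 had medians of 0.726 in deleted and 0.879 in wildtype BAP libraries, and 0.966 and 0.566 in deleted and wildtype untreated libraries.

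Targets of p53 that do not act in repair were read beside Xpc and Polh, which were not called. Of 16 such genes 3 rose and 7 fell with Keap1 deletion in BAP tumours, 62.5% called against 40.3% of all genes (2 and 7 without Keap1-deleted BAP 2), and 0 were called by edgeR in untreated tumours, where 4 had an unadjusted p under 0.05. Cdkn1a, the cell cycle inhibitor p21, ran from 274 to 383 CPM in wildtype BAP libraries and from 18.9 to 60.3 CPM in deleted BAP libraries (-2.88 ± 0.49, adjusted p = 0.000402), and without Keap1-deleted BAP 2 the difference was -2.92. Mdm2, the p53 ubiquitin ligase, differed by -0.11 ± 0.26 (adjusted p = 0.756). Trp53 itself rose by 1.85 ± 0.47 (adjusted p = 0.0042), at 12.7 to 110 CPM against 6.65 to 13.4 CPM. The size rests on Keap1-deleted BAP 3, the library at 110 CPM, since without it the difference was 0.84 (adjusted p = 0.0498) and the next highest library was at 24.1 CPM. Which cells these transcripts came from was not tested.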
